A study of Mus musculus with 8 samples.

Results

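The heat shock response genes examined here are 10 genes picked by symbol and matched to Entrez identifiers in the RNA-seq count table: the transcription factor gene Hsf1, the HSP70 genes Hspa1a, Hspa1b and Hspa8, the HSP90 genes Hsp90aa1 and Hsp90ab1, and Hsph1, Hspb1, Dnajb1 and Bag3. They are 10 of 23403 genes in the table, and 9 of them had enough reads to be tested. The cells were Hepa-1c1c7 (Hepa-1), an established mouse hepatoma line. RNA-seq covered 2 libraries of cells exposed to 25 µM CrK2O4, a hexavalent chromium (Cr(VI)) salt, for 90 minutes and 2 libraries of controls, for which the labels leave the regimen unnamed. FAIRE-seq, which recovers DNA free of crosslinked protein and so marks open chromatin, covered 1 library each of cells given the same acute exposure, their control, cells kept in 0.5 µM CrK2O4 for 20 passages and their control passaged without chromium. All groups were grown in the same serum-containing medium. RNA from the cells kept in low Cr(VI) was not analysed here.

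HSF1 is held inactive in unstressed cells. When proteins unfold, through heat, heavy metals or oxidants, it forms trimers, enters the nucleus and binds heat shock elements, which are inverted repeats of the block GAA, and transcription of the chaperone genes starts within minutes. HSP70 and HSP40 proteins bind unfolded chains, HSP110 proteins and BAG domain proteins release the nucleotide from HSP70, HSP90 proteins hold clients such as kinases and hormone receptors, and small heat shock proteins keep unfolding proteins from aggregating. HSF1 activation is mainly a matter of its protein, so the RNA of its targets, above all the strongly inducible Hspa1a and Hspa1b, is the usual readout.

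The sequences upstream of Hspa1a and Hspa1b are shown first because these genes are the classical reporters of the response and because their near identity limits how their reads can be told apart. Both come from RefSeq on GRCm38.p6, the patch release of mm10, and run over the 150 bases before the annotated start on the minus strand, at chr17:34972157-34972306 and chr17:34959239-34959388. Capitals mark GAANNTTC, a pair of facing heat shock blocks, which lies from 104 to 97 bases before the start in both.
Hspa1a: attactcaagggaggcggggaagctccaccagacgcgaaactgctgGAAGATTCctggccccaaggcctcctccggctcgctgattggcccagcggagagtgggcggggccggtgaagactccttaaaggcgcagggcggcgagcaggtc
Hspa1b: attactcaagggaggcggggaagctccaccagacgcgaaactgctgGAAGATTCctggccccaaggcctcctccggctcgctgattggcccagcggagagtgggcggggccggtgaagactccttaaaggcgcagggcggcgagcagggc
Over windows of 300 bases, from 250 before to 50 after the start, the 2 genes were identical at 296 bases.

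RefSeq windows were at hand for 6 members (Hspa1a, Hspa1b, Hsph1, Hspb1, Dnajb1 and Bag3). A run of 3 alternating blocks, GAANNTTCNNGAA or TTCNNGAANNTTC, searched on both strands, was found in 1 of the 6, Hsph1, and in 0.662% of 27025 genes with a window. Hsph1 has 2 annotated starts and the run, in capitals, lies just after both of them on the minus strand of chromosome 5.
Hsph1: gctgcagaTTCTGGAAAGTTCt
With 2 blocks, GAANNTTC or TTCNNGAA, 5 of the 6 windows had a match, against 17.0% of all genes, and Dnajb1 had none. The 2-block motif is part of the 3-block motif, so the counts overlap. Hspb1 carried 2 such matches 20 bases apart, the first 117 bases and the second 97 bases before the start.
Hspb1 upstream match: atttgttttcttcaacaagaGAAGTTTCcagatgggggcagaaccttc
Hspb1 nearer match: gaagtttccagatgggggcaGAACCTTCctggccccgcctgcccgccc
Allowing 1 of the 9 fixed bases of the 3-block motif to differ gave 4 of 6 windows (Hspa1a, Hspa1b, Hspb1 and Hsph1) and 8.15% of all genes. A match describes letters in these windows and says nothing of whether HSF1 was bound there.

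The RNA-seq libraries held 32319676 to 37696116 counts, and the treated libraries resembled each other less (Pearson r of log2 CPM across genes 0.974) than the controls did (0.997). CPM here is the count per 1000000 counts of the library after TMM scaling. The labels do not say that replicates were separate cultures, so p-values measure only the spread between libraries, and in bulk RNA a change in level per cell cannot be told apart from a change in the mix of cells. Albumin and other hepatocyte markers were present but moved with treatment. Their sum over 10 genes was 5330 and 5877 CPM in treated and 2204 and 2267 CPM in control libraries. By edgeR's quasi-likelihood test at an adjusted p-value of 0.05, 3 of 9 tested (Alb, Ttr and Apob) were higher, against 1.78% of all genes. Alb and Trf made up most of the sum, and several other markers of the list had few reads in control libraries. There Hnf4a had 8 and 10 counts, Ttr 12 and 13, Apob 23 and 26, and Serpina1a 24 and 24. In treated libraries the counts were 15 and 15, 61 and 57, 635 and 346, and 22 and 19, in the same order. Afp (4376 to 5889 counts) and Foxa2 (1577 to 2611 counts) had more reads and were not called. The marker Apoa1 had 2 and 9 counts in treated and 0 in control libraries. Sums of the other marker lists ran from 0.633 to 2.38 CPM (4 endothelial genes, Cdh5 and Tek at no more than 3 counts, 1 tested and higher), from 42.2 to 60.1 CPM (5 immune genes, Ptprc and Cd3e at no more than 3 counts) and from 262.9 to 413.8 CPM (5 fibroblast genes, Lum at no more than 3 counts). Csf1r made up most of the immune sum, at 37.0 and 37.9 CPM in treated and 50.1 and 49.6 CPM in control libraries. Most of the fibroblast sum came from Col1a1, at 234.3 and 364.1 CPM in treated and 203.2 and 206.9 CPM in control libraries. Cd68 and Pdgfrb also had reads, from 172 to 639 and from 1207 to 2721 counts a library. The part of these markers in the values of the heat shock genes was not tested.

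The first question was whether acute Cr(VI) changed the level of these RNAs. Of the 9 tested members, 0 passed edgeR's quasi-likelihood test at an adjusted p-value of 0.05, where 4.63% of all tested genes did (1.78% higher and 2.85% lower in treated cells). At an unadjusted p-value under 0.05 there were 2, Hsf1 and Bag3, both with higher values in treated cells, where 30.7% of all tested genes were under that threshold, and DESeq2 called 1, Hsf1, with 15.2% of all genes called. The median log2 fold change over the 9 was 0.46, against -0.0047 over all tested genes. Of the 9 tested members, 5 had both treated libraries above both controls (Hsf1, Hspa1a, Hsp90aa1, Hsp90ab1 and Bag3) and 1 had them below (Hspa8). Of all tested genes 32.2% and 34.0% did so. For Hspa1a the gap came from scaling, as the first treated and the first control library both had 20 counts (0.591 and 0.575 CPM). The untested Hspb1 also had both treated libraries above both controls. Read numbers differed widely between members, and the RNAs of Hspa8, Hsp90aa1 and Hsp90ab1 made up 93.6% to 93.9% of all reads on the 10 genes.

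**Figure D1:**
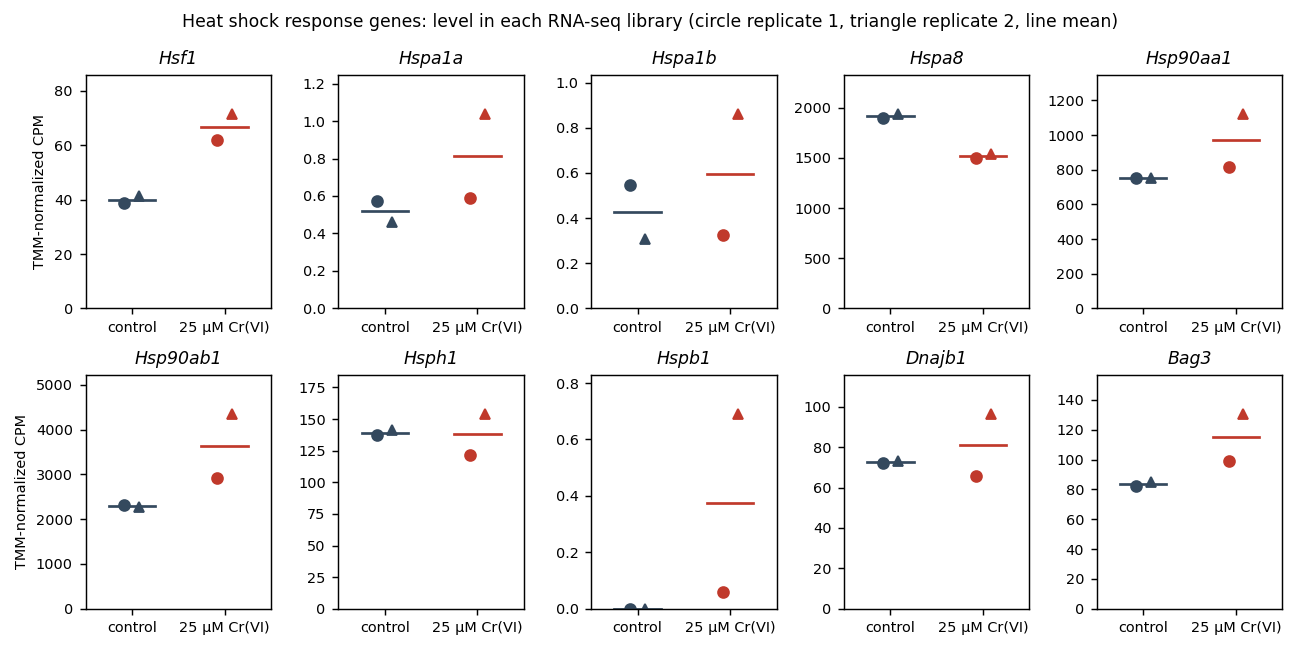
Level of each of the 10 genes in each RNA-seq library, in TMM-normalized CPM on a linear axis from 0. Dark symbols are control and red symbols 25 µM Cr(VI) libraries, circles replicate 1 and triangles replicate 2, with lines at the mean; the treated triangle lies above the treated circle in all 10 panels.

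Hsf1, the master factor itself, lies on chromosome 15 from 76477362 to 76501155. It was at 61.8 and 71.7 CPM in treated and 38.7 and 41.3 CPM in control libraries. The groups were well apart, and this was the member with the largest fitted difference. The log2 fold change was 0.74 (SE 0.13, 95% interval 0.39 to 1.09), with an adjusted p-value of 0.0576 (edgeR's quasi-likelihood test) that just missed the threshold. DESeq2 gave 0.76 with an adjusted p-value of 0.00793. Every 50 bp stretch lying within its exons occurs once in the genome as an exact match. Reads across exon junctions or with mismatches were not examined.

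Hspa1a and Hspa1b, the inducible HSP70 genes, are neighbours on chromosome 17 with 1 exon each, Hspa1a from 34969359 to 34972156 and Hspa1b from 34956429 to 34959238. Hspa1a had 20 and 30 counts in treated and 20 and 18 in control libraries. Hspa1b had 11 and 25 counts in treated and 19 and 12 in control libraries. These are among the lowest levels of the set, and for Hspa1b the groups overlapped. The log2 fold changes were 0.64 (95% interval -0.47 to 1.75) for Hspa1a and 0.46 (-1.20 to 2.13) for Hspa1b, with adjusted p-values of 0.348 and 0.641 (edgeR's quasi-likelihood test).

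Of the 50 bp exon stretches, 62.4% of those of Hspa1a and 62.2% of those of Hspa1b were shared between the pair, and how reads with several matches were counted is not given in the sources used here. The genes were therefore also summed. Together they had 31 and 55 counts in treated and 39 and 30 in control libraries, a level of 1.41 ± 0.695 CPM against 0.945 ± 0.251 CPM (SD, n = 2 each). The log2 fold change of the sum was 0.57 (SE 0.47, adjusted p-value 0.457 by edgeR's quasi-likelihood test). The 95% interval, from -0.70 to 1.84, reached a 3.57-fold rise at its upper end. Most of the difference came from the second treated library: without it the log2 fold change was -0.03, and without the first it was 1.03 (adjusted p-value 0.000504, in a fit where the lone treated library is assumed to vary like the controls). For every 10000 reads on Hspa8 the pair had 6.1 and 12.3 reads in treated and 5.93 and 3.95 in control libraries.

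Hspa8, the constitutive HSP70 on chromosome 9 from 40801276 to 40805202, was the member with both treated libraries below both controls. It was at 1502 and 1538 CPM in treated and 1893 and 1941 CPM in control libraries. The treated libraries were close to each other. The log2 fold change was -0.33 (SE 0.17, 95% interval -0.80 to 0.13), and the adjusted p-value was 0.264 (edgeR's quasi-likelihood test). Only 9.74% of its 50 bp exon stretches were unique in the genome, so its count depends on how reads shared with copies were treated. The small nucleolar RNA genes Snord14c, Snord14d and Snord14e lie within it.

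Hsp90ab1, the constitutive HSP90 on chromosome 17 from 45567778 to 45573261, was at 2911 and 4351 CPM in treated and 2321 and 2282 CPM in control libraries. It had the most reads of the members, and the treated libraries differed from each other by more than the lower of them did from the controls. The log2 fold change was 0.66 (SE 0.28, 95% interval -0.093 to 1.41), with an adjusted p-value of 0.199 by edgeR's quasi-likelihood test and 0.0511 by DESeq2. Hsp90aa1, the stress-inducible HSP90 on chromosome 12 from 110691036 to 110696395, was at 814 and 1124 CPM in treated and 754.0 and 754 CPM in control libraries. Its treated libraries were again unlike each other, while the controls were almost the same. Its log2 fold change was 0.36 (SE 0.21, 95% interval -0.21 to 0.93, adjusted p-value 0.313 by edgeR's quasi-likelihood test). Of the exon stretches of Hsp90ab1 90.7% were unique, and of those of Hsp90aa1 18.0%.

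The ratio of constitutive to inducible HSP90 per length of transcript was 4.07 and 4.4 in treated libraries, above the controls at 3.5 and 3.44. Hsp90ab1 and Hspa8 were level with each other in control cells, with per-length ratios of 1.03 and 0.987. In treated cells the ratio was 1.63 and 2.37. Both ratios are within a library and do not depend on scaling between libraries, and no test was run on them. They do depend on how reads shared with copies were counted, which is not known. Of the exon stretches, 9.74% were unique for Hspa8, 18.0% for Hsp90aa1 and 90.7% for Hsp90ab1.

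Bag3, the BAG domain co-chaperone that links HSP70 to small heat shock proteins and to autophagy, lies on chromosome 7 from 128523583 to 128546981. It was at 99.1 and 130.7 CPM in treated and 82.1 and 85.3 CPM in control libraries. Both treated libraries were higher, the second by more. The fitted log2 fold change was 0.46 (SE 0.17, 95% interval 0.0083 to 0.91), with an unadjusted p-value of 0.0473 and an adjusted one of 0.158 (edgeR's quasi-likelihood test). All of its exon stretches were unique.

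Dnajb1, the HSP40 that delivers substrates to HSP70, lies on chromosome 8 from 83608175 to 83612653. It was at 65.7 and 96.5 CPM in treated and 72.1 and 73.0 CPM in control libraries. The controls fell between the treated libraries. Its log2 fold change was 0.16 (95% interval -0.40 to 0.72, adjusted p-value 0.635 by edgeR's quasi-likelihood test), and it was -0.14 without the second treated library.

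Hsph1, the HSP110 on chromosome 5 from 149616843 to 149636498, was at 121.8 and 154.1 CPM in treated and 137.5 and 141.1 CPM in control libraries. The groups overlapped in the same way as those of Dnajb1. Its log2 fold change was -0.014 (95% interval -0.42 to 0.39, adjusted p-value 0.959 by edgeR's quasi-likelihood test). Its sign turned with upper-quartile scaling (0.0089) and with DESeq2 (0.0051). Hsph1 is also the gene whose window held the full run of 3 heat shock blocks shown above.

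Hspb1, a small heat shock protein gene on chromosome 5 from 135887919 to 135889563, had 2 and 20 counts in treated and 0 and 0 in control libraries. It did not pass the filter on low counts and was not tested. Its 22 treated counts put the level at 8.63 times that of 3 counts over the control group, the limit that a count of 0 allows. However, 20 of them came from the second treated library. The value allows for counting error in the controls only and takes the treated counts as exact. It does not cover the spread between libraries, and 31.5% of the exon stretches of Hspb1 were unique.

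**Figure D2:**
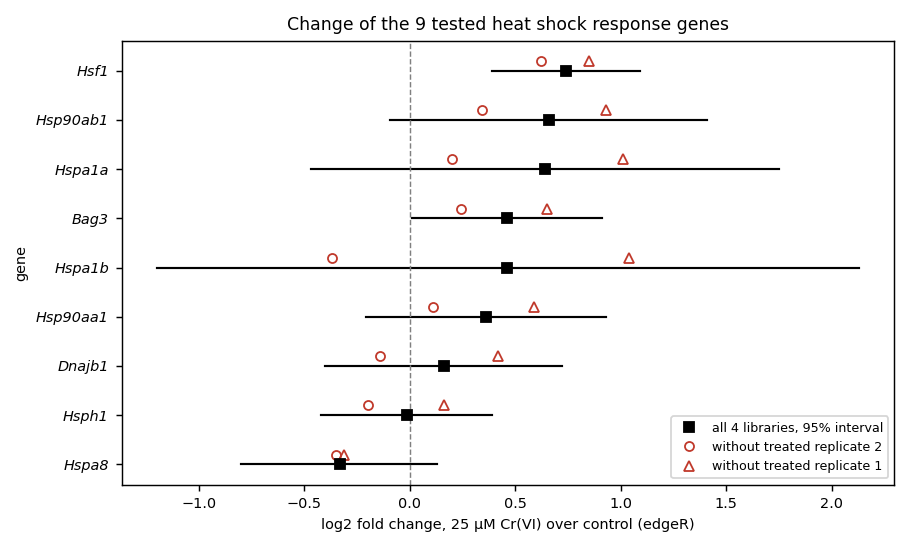
Log2 fold change of the 9 tested genes, 25 µM Cr(VI) over control, from edgeR (squares, with 95% intervals), and with either treated library left out (red circles, without replicate 2; red triangles, without replicate 1). For 8 genes the value without replicate 1 is higher than that without replicate 2 by a clear margin; the 2 values of Hspa8, -0.31 and -0.35, nearly coincide.

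The treated libraries differed from each other in one direction across the set. After TMM scaling all 9 tested members were higher in the second than in the first treated library, with a median log2 difference of 0.47 and a range from 0.034 to 1.37. Over all tested genes the median was -0.0075 and 49.4% were higher. The direction was not particular to the members, as 70 of the 86 tested genes of the wider chaperone network (81.4%) were also higher in the second treated library, among them 8 of 8 subunits of the CCT chaperonin and 7 of 7 other HSF1 targets. By library size alone 8 of the 9 were higher, with a median of 0.27, where all genes had a median of -0.21 and 35.6% were higher. The 10 genes together took 0.574% and 0.669% of the counts of the treated and 0.553% and 0.552% of those of the control libraries. Among genes singled out after their values were seen, Zfand2a, an HSF1 target also induced by arsenite, was at 222.6 and 658.7 CPM in treated and 224.4 and 223.7 CPM in control libraries. Hmox1, heme oxygenase 1, was at 49.9 and 315.9 CPM in treated and 52.1 and 55.2 CPM in control libraries. For both, the first treated library was at the level of the controls and the second was far above them. They were the 2 of the 7 other HSF1 targets whose groups overlapped. In that list both treated libraries lay above both controls for 4 genes and below them for 1, against 32.2% and 34.0% of all tested genes.

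Levels of different genes were set side by side per kilobase of exon (RPKM). Reads shared with copies leave the values of Hspa8, Hsp90aa1, Hspa1a, Hspa1b and Hspb1, and so their ranks, uncertain. In control cells Hsp90ab1 (918 ± 11.1 RPKM, SD, n = 2) and Hspa8 (911 ± 16.0) led and overlapped. They were followed by Hsp90aa1 (264.5 ± 0.0769), Hsph1 (36.8 ± 0.671), Bag3 (32.3 ± 0.873), Dnajb1 (22.5 ± 0.205) and Hsf1 (15.2 ± 0.712), with no overlap between neighbours. Hspa1a (0.185 ± 0.029) and Hspa1b (0.152 ± 0.0603) overlapped at the bottom, above Hspb1, which had no reads. In treated cells Hsp90ab1 (1448 ± 406 RPKM) lay above Hspa8 (722 ± 12.2) and Hsp90aa1 (340.0 ± 77.0), each apart from the next. Bag3 (44.3 ± 8.62) and Hsph1 (36.5 ± 6.03) overlapped, as did Hsf1 (25.4 ± 2.66) and Dnajb1 (25.1 ± 6.75), and so did Hspb1 (0.415 ± 0.494), Hspa1a (0.291 ± 0.112) and Hspa1b (0.211 ± 0.135). In both groups the inducible HSP70 genes, with 11 to 30 counts a library, lay far below the constitutive Hspa8.

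The rest of the heat shock and chaperone network was described by 8 lists with 90 genes, of which 86 were tested. Across them 1 gene rose and 1 fell by edgeR's quasi-likelihood test, the median log2 fold change was 0.12, and 22 genes had an unadjusted p-value under 0.05 (15 higher and 7 lower). DESeq2 called 9 higher and 2 lower. These counts, and those of the single lists below, are to be read against the shares of all tested genes given above. The shares were 4.63% by edgeR's quasi-likelihood test, 30.7% at the unadjusted threshold and 15.2% by DESeq2. The 2, 22 and 11 of 86 do not exceed them. Both calls of edgeR concerned genes related to the members rather than the members themselves.

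Dnajb4, an HSP40 close to Dnajb1, was the gene that rose. It was at 92.3 and 111.2 CPM in treated and 47.6 and 50.1 CPM in control libraries. Its log2 fold change was 1.06 (SE 0.14, adjusted p-value 0.0391 by edgeR's quasi-likelihood test). The call was lost without either control library, with adjusted p-values of 0.209 and 0.161. In the list of HSP70 and HSP40 partners this was 1 of 20 tested genes, the median of the list was 0.0069, and the partner with the most reads, the HSP40 gene Dnaja1, was at 344.6 and 315.1 CPM in treated and 373.2 and 360.4 CPM in control libraries (log2 fold change -0.15, adjusted p-value 0.458 by the same test).

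Hsf3, a heat shock factor gene known from birds and mouse, was the gene that fell, from 33 and 52 counts in control to 1 and 1 count in treated libraries. The summed control level was 36.1 times the treated one, with an exact 95% counting interval from 9.7 to 303.2, and the fitted log2 fold change was -5.01 (adjusted p-value 0.0317 by edgeR's quasi-likelihood test). Among the 6 tested other heat shock factors and their binding proteins it was the only call. Hsbp1, which binds HSF1 trimers and had the most reads of that list, was at 131.7 and 189.0 CPM in treated and 139.5 and 139.0 CPM in control libraries, on both sides of the controls.

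The remaining 6 lists held no called gene by edgeR's quasi-likelihood test. Of the 15 chaperones of the endoplasmic reticulum 5 were higher and 1 lower at an unadjusted p-value under 0.05, DESeq2 called 5 higher (all tested genes: 30.7% and 15.2%), and the median log2 fold change was 0.22. The one with the most reads, the disulfide isomerase gene Pdia3, was at 1672 and 2360 CPM in treated and 1079 and 1083 CPM in control libraries (log2 fold change 0.90, SE 0.24, adjusted p-value 0.10 by edgeR's quasi-likelihood test and 0.00262 by DESeq2). The 7 other HSF1 targets had the highest median, 0.71, with 1 gene at an unadjusted p-value under 0.05 and 1 DESeq2 call.

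The small heat shock proteins had a median log2 fold change of 0.32 over 6 tested genes, with 3 higher at an unadjusted p-value under 0.05 and 1 DESeq2 call, numbers too small to set against those shares. Hspb8, the partner of Bag3 in chaperone-assisted autophagy, was at 246.2 and 347.3 CPM in treated and 185.2 and 194.0 CPM in control libraries (log2 fold change 0.65, SE 0.20, adjusted p-value 0.127 by edgeR's quasi-likelihood test and 0.0456 by DESeq2). The 14 HSP90 partners had a median of 0.089, with 2 higher and 1 lower at an unadjusted p-value under 0.05 and 1 DESeq2 call, both below the shares of all genes. Stip1, which bridges HSP70 and HSP90, was at 305.0 and 406.7 CPM in treated and 345.7 and 347.4 CPM in control libraries, on both sides of the controls.

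The CCT chaperonin folds actin and tubulin. Its 8 subunits had a median log2 fold change of 0.21, with 0 at an unadjusted p-value under 0.05 and 0 DESeq2 calls, and Cct5 was at 987 and 1362 CPM in treated and 869 and 894 CPM in control libraries. The 10 mitochondrial chaperones and proteases had a median of -0.0012 and again 0 by either measure. Hspd1, mitochondrial HSP60, was at 765 and 1130.1 CPM in treated and 1130 and 1113 CPM in control libraries, so that its lower values came from the first treated library.

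**Figure D3:**
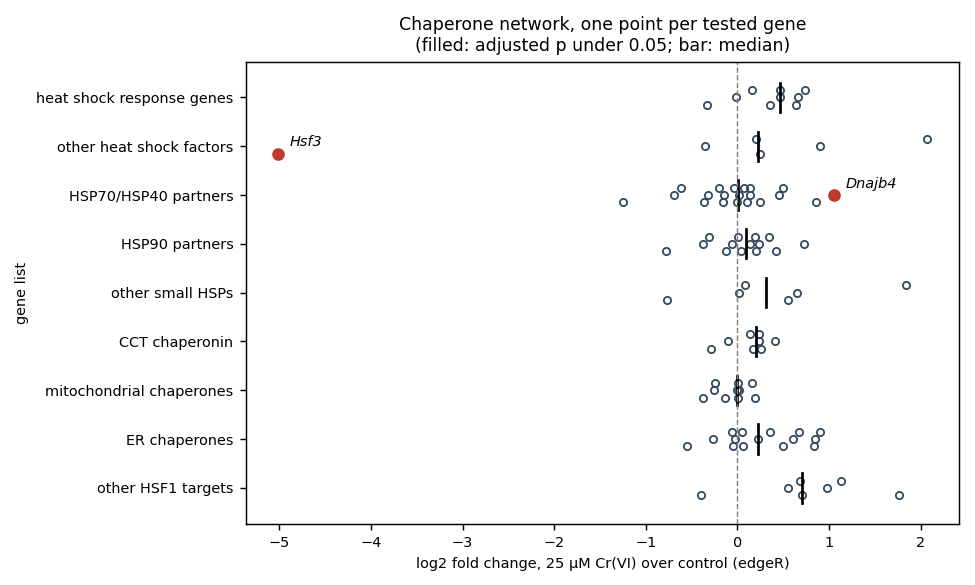
Log2 fold change of every tested gene of the heat shock response set and of the 8 other lists, 25 µM Cr(VI) over control (edgeR). Open circles did not pass an adjusted p-value of 0.05, filled circles did, and bars are list medians; Dnajb4 (1.06) and Hsf3 (-5.01) are the filled points, and the heat shock response set holds none.

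The second question was whether chromatin opened at these genes. The peak lists give regions more open in a treated library than in its control, with a score equal to 10 times the negative log10 of the peak caller's p-value, but no read numbers, so the reads behind a given peak are not known here, and with 1 library per condition no replicate check is possible. Both lists hold slightly fewer peaks than the totals in the study's text. The study's breakdown of peaks by genomic element adds up to the numbers of the lists used here. Counts of members with or without a peak hold for the peaks analysed here. In the 25 µM list of 2945 peaks, 2 members (Hsp90aa1 and Hspa8) had a peak in or within 10 kb of the gene, against 6.42% of annotated genes. For 1 member, Hsp90aa1, a peak centre lay within 1 kb of a transcription start site (TSS), against 0.830% of genes. In the 0.5 µM list of 860 peaks the members had 0 and 0 such peaks, against 1.98% and 0.561% of genes.

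The peak in Hsp90aa1 is shown because it was the only one of either list inside a member. It spans 122 bp at chr12:110695648-110695769, centred 686 bp downstream of the TSS, with 89 bp in the first intron and, in capitals, 33 bp of coding sequence of exon 2 from the start codon on. The letters are those of GRCm38.p6 on the minus strand, the strand of the gene.
Hsp90aa1 peak: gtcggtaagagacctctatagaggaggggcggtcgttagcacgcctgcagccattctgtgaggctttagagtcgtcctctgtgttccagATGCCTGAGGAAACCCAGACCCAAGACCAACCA
All of its 50 bp stretches occur once in the genome. Its score of 50.03 was among the lowest of the list, as 2932 of the 2945 peaks scored as high or higher, and a minimum score of 60 removed it. The level of Hsp90aa1 RNA in the same treatment, given above, did not pass the test. A further peak of 72 bp with a score of 59.52 lay 7.42 kb upstream of the gene.

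The peak near Hspa8 spans 83 bp at chr9:40792029-40792111 and lies 9165 bp upstream of the gene, with Clmp, at 6476 bp, the nearer gene. Its score was 62.15. It is shown on the plus strand of GRCm38.p6 because Hspa8 is the other member with a peak within 10 kb.
Hspa8 peak: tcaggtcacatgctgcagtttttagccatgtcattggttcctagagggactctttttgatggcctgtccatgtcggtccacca
The 200 bp window around its centre held a 2-block match and no 3-block match, and the window around the Hsp90aa1 peak held neither. Over all peaks 11.0% of such windows in the 25 µM list and 10.3% in the 0.5 µM list had a 2-block match, and 0.34% and 0.233% a 3-block match.

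Peaks of the 25 µM list lay just outside the 10 kb limit for Hsf1, with a score of 51.68 at 11145 bp downstream and 279 bp from Dgat1, and for Hsp90ab1, with a score of 73.19 at 10850 bp downstream within Nfkbie. For the other 6 members the nearest peak was 59.8 kb (Hspa1a) to 508 kb (Bag3) away. In the 0.5 µM list the nearest peak was 197 kb (Bag3) or more from every member.

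**Figure D4:**
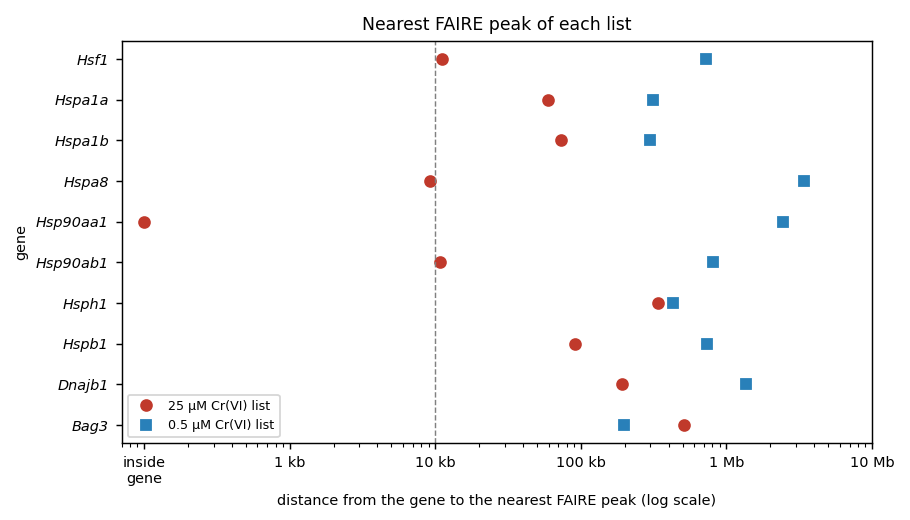
Distance from each of the 10 genes to the nearest FAIRE peak of the 25 µM list (red circles) and of the 0.5 µM list (blue squares) on a log axis, with a dashed line at 10 kb. The peak within Hsp90aa1 is drawn at the left edge; Hspa8 (9165 bp) is the other point left of the line, and no square is.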

How the data were processed

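RNA-seq of 4 libraries (2 of cells given 25 µM Cr(VI), 2 controls) and FAIRE-seq of 4 libraries were analysed from deposited values. Read counts per Entrez gene were deposited by the authors without normalization, after alignment to mm10 with TopHat. The counting tool, the strand setting and the treatment of reads with several matches are not given in the sources used here. Without strand, reads of antisense or overlapping genes cannot be told apart, and shared reads leave the counts of Hspa1a, Hspa1b, Hspa8, Hsp90aa1 and Hspb1 uncertain. Peaks and their score values, on a scale of 10 times the negative log10 p-value, were made by the authors with BWA and MACS from 1 treated against 1 control library. The submitters' processing notes also name bcl2fastq, CASAVA 1.8 and DESeq. Depth was 32319676 to 37696116 counts per library.

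The fit covered all 13619 genes that passed filterByExpr, with edgeR 4.0.16 (TMM, quasi-likelihood, two-sided, Benjamini-Hochberg, threshold 0.05, no block, biological coefficient of variation 0.193). Intervals are at 95%. RPKM used the union of RefSeq exons. Gene positions, peak distances, promoter windows and 50 bp stretches used RefSeq on GRCm38.p6; 122 identifiers had no coordinates. The members and lists were chosen with earlier results of these data known. Named genes are all members, up to 3 called genes per list with the largest change, and the tested gene with the most reads in each list, apart from a gene not reported here; Zfand2a and Hmox1 were added after their values were seen. The fit was tested on simulated data with 200 of 13619 genes changed, and it recovered 145 of them with 8 false calls. The changes set there were larger than those fitted for the tested members. How often changes as small as theirs would be called was not tested. Alternatives were DESeq2 1.42.0, a replicate block, no filter, no normalization factors, upper-quartile factors, each library left out, other distances and scores for peaks, and looser motifs. Versions were Python 3.11.15 with matplotlib 3.10.9, numba 0.67.0, scipy 1.17.1, pandas 2.3.3 and numpy 2.4.6, and R 4.3.3 with limma 3.58.1.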

Additional observations from a re-analysis of the deposited data

How the results depend on the processing

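With 2 libraries per group, calls depended on how the spread was estimated. The number of genes called was 631 (243 higher, 388 lower), 2073 with DESeq2 (1057 higher, 1016 lower), 2969 with a replicate block (1397 higher, 1572 lower), 294 and 287 without a control library, and 9333 and 10995 without a treated library, where the lone treated library is assumed to vary like the controls. Of the members 0 were called, 1 with DESeq2, 1 with the replicate block, 0 without either control library, 7 without the second and 10 without the first treated library, fits in which 67.2% and 77.6% of all genes were called. The 10 include Hspb1, which passed the filter only through its 20 counts in the lone treated library, so its call there is no support. Of the 90 network genes 2 were called, 11 with DESeq2, 14 with the block and up to 74 with a library left out. The block took the shared replicate number as a term. The deviations of the first treated and the first control library from their group means had r = 0.0909 across tested genes. With 2 libraries per group this value cannot show whether the numbers mark a pairing, and no pairing is known. Under the block Hsf1 had a log2 fold change of 0.74 (adjusted p-value 0.00629) and Hspb8 one of 0.63 (adjusted p-value 0.0386), by edgeR's quasi-likelihood test. Leaving out a library moved Hspa1a plus Hspa1b between -0.03 and 1.03.

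With a treated library left out the log2 fold change ran from -0.37 (without the second) to 1.04 (without the first) for Hspa1b, from -0.14 to 0.42 for Dnajb1, from -0.082 to 0.45 for Hsbp1, from -0.19 to 0.24 for Stip1, from -0.20 to 0.16 for Hsph1 and from -0.55 to 0.021 for Hspd1, so that each changed sign. Hsph1 was 0.0051 with DESeq2 and 0.0089 with upper-quartile factors, and Stip1 was -0.088 with no normalization factors, a setting that shifted the median of all genes to -0.11. The cause of these turns was not tested. In the 25 µM peak list, 1 member was overlapped by a peak (3.45% of all genes), 4 had one within 50 kb (17.0%), and 1 had one within 10 kb with a score of at least 60 (2.47%), against 2 as reported (6.42%); TSS peaks fell from 1 to 0 with a limit of 500 bp or that score. Looser motifs gave 5 and 4 windows in place of 1.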
